A study of Homo sapiens with 20 samples.

Results

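The small structural RNAs RN7SK, RN7SL1, RN7SL2, RMRP and RPPH1 and a pair of nuclear long noncoding RNAs (MALAT1 and NEAT1) were followed through RNA sequencing of WT Jurkat T lymphoblasts and of JinB8 cells, a CD47-deficient somatic mutant of Jurkat. The members were picked by name because such RNAs take a large part of the counts, so the height of their share is a description and carries no test. The 7 names matched 8 of the 60719 rows of the gene table, since RMRP is listed in a pair of rows, and all 8 rows passed the filter on low counts. Each line was sequenced under 10 conditions with 1 library per condition. At 1 h these were untreated (UT), plates coated with anti-CD3 and anti-CD28 (CD3/CD28), the same with added thrombospondin-1 (CD3/CD28+TSP1), and thrombospondin-1 alone (TSP1), and at 3 h and 6 h the same without UT. Anti-CD28 was coated at 4 µg/mL and TSP1, a secreted ligand of the receptor CD47, was added at 1 µg/mL. All cells were kept in the same serum-free medium during treatment. JinB8 is a single mutant line, so a difference between the lines cannot be told apart from other differences between these cultures, and with 1 library per condition every p-value measures only the spread between these libraries.

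The small RNAs are transcribed by RNA polymerase III and work inside protein complexes. RN7SL1 and RN7SL2 encode 7SL, the RNA core of the signal recognition particle that brings ribosomes making secreted and membrane proteins to the endoplasmic reticulum. RN7SK encodes 7SK, which holds the elongation factor P-TEFb in an inactive store through HEXIM proteins. RPPH1 is the catalytic RNA of RNase P, which trims the 5′ ends of transfer RNA precursors, and RMRP is the related RNA of RNase MRP, which cuts precursor ribosomal RNA. MALAT1 is a long RNA of nuclear speckles, and NEAT1 is the RNA around which paraspeckles are built, its long isoform being the one needed for the structure.

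The genes lie at chr6:52995621-52995948 (RN7SK, plus strand), chr9:35657754-35658017 (RMRP, minus strand), chr14:20343075-20343407 (RPPH1, minus strand), chr14:49586580-49586878 (RN7SL1, plus strand), chr14:49862550-49862849 (RN7SL2, minus strand), chr11:65422774-65445540 (NEAT1, plus strand) and chr11:65497640-65508073 (MALAT1, plus strand) of GRCh38. RN7SL1 and RN7SL2 are near-identical copies of 1 RNA. Sequences are shown for RMRP, RPPH1 and RN7SK, whose time courses are compared between the lines further on, RMRP whole (264 bases) and the first 150 bases of RPPH1 and of RN7SK.
RMRP: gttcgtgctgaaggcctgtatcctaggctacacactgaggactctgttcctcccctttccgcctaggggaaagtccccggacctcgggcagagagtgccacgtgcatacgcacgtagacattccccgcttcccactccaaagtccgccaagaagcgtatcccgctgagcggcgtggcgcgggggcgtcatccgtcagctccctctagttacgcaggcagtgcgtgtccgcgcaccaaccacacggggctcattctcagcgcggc
RPPH1: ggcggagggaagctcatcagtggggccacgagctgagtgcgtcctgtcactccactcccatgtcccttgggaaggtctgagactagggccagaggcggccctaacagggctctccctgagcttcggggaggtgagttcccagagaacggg
RN7SK: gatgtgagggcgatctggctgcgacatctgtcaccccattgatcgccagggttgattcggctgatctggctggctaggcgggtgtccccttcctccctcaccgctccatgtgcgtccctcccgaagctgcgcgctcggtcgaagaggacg

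The library kit captures polyadenylated RNA, and mature RNA polymerase III transcripts carry no long A tail, so the ends of RN7SK, RPPH1 and RMRP are shown. Each stretch holds the last 15 bases of the annotated gene and the 10 bases after it, on the RNA's strand, with capitals for the T run at which RNA polymerase III transcription ends. The T run was 4 bases long in RN7SK, 5 in RPPH1 and 6 in RMRP.
RN7SK: gcagtctgcctttcTTTTgacccat
RPPH1: ctactctcctccgcccaTTTTTgga
RMRP: cattctcagcgcggctgTTTTTTgt

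Within the annotated transcripts the longest run of A was 4 bases in RN7SL1 and RN7SL2, 3 in RN7SK and RMRP, and 2 in RPPH1. The long RNAs hold longer internal A runs, shown in capitals with 20 bases on either side. The run of 22 A in NEAT1 lies at chr11:65440823-65440884 with its flanks, inside the long isoform, and that of 13 A in MALAT1 at chr11:65506078-65506130.
NEAT1: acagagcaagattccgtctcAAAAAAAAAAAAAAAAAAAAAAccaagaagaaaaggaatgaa
MALAT1: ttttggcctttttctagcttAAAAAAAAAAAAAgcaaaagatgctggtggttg

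How the members, small or long, entered the libraries was not tested. Their counts give their share of what was sequenced, not of the RNA in the cell. The libraries held 16107909 to 31737627 counts. On the CPM scale (a gene's count scaled to a common library size), CD47 itself was 124 to 165 CPM in JinB8 against 253 to 371 in Jurkat, with no overlap. T cell markers were detected 10 of 10 in both lines, at a summed 1929 to 3076 CPM in JinB8 and 2149 to 3049 in Jurkat. Markers of other cell types were lower but parted the lines in part. The 4 B cell markers summed to 5.70 to 13.5 CPM in JinB8 and 35.5 to 55.8 in Jurkat, and the 4 endothelial markers to 93.9 to 120.1 and 37.1 to 57.9. In either line only 2 of the 4 B cell markers and 1 of the 4 endothelial markers reached 1 CPM in a library. The myeloid, epithelial and fibroblast markers stayed at or below 8.37 CPM. Their part in the differences between the lines was not tested. The library labelled JinB8 CD3/CD28+TSP1 3 h had the lowest total (16107909 counts) and the lowest share of ribosomal protein genes (5.35%, against 7.02 to 8.71% in the others). The libraries labelled Jurkat TSP1 1 h, Jurkat TSP1 3 h and JinB8 UT 1 h were low in RN7SL2, with the values given beside RN7SL2.

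Together the members took between 11.1 and 19.0% of all counts, with a mean of 15.4% ± 2.56 (SD, n = 20). The mean was 16.8% ± 1.94 (SD, n = 10) in Jurkat and 14.01% ± 2.4 (SD, n = 10) in JinB8. RN7SL2, RN7SL1 and RN7SK ranked 1, 2 and 3 by mean share, and they were the 3 highest rows in 20 of 20 libraries. RPPH1 ranked 5, the main RMRP row 6 and MALAT1 7. The highest gene outside the members was EEF1A1, the translation elongation factor, at rank 4 with a mean share of 1.44%. NEAT1 was far from this range, at rank 1604, and the minor RMRP row was at rank 686. By line and time the summed share was 16.7% ± 2.65 (SD, n = 4) at 1 h, 16.2% ± 2.11 (SD, n = 3) at 3 h and 17.6% ± 0.478 (SD, n = 3) at 6 h in Jurkat. In JinB8 it was 12.8% ± 1.20 (SD, n = 4), 12.5% ± 1.24 (SD, n = 3) and 17.04% ± 1.57 (SD, n = 3). With the 3 libraries low in RN7SL2 left out the mean was 17.6% ± 1.24 (SD, n = 8) in Jurkat and 14.3% ± 2.38 (SD, n = 9) in JinB8, and without JinB8 CD3/CD28+TSP1 3 h it was 14.3% ± 2.31 (SD, n = 9) in JinB8.

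**Figure D1:**
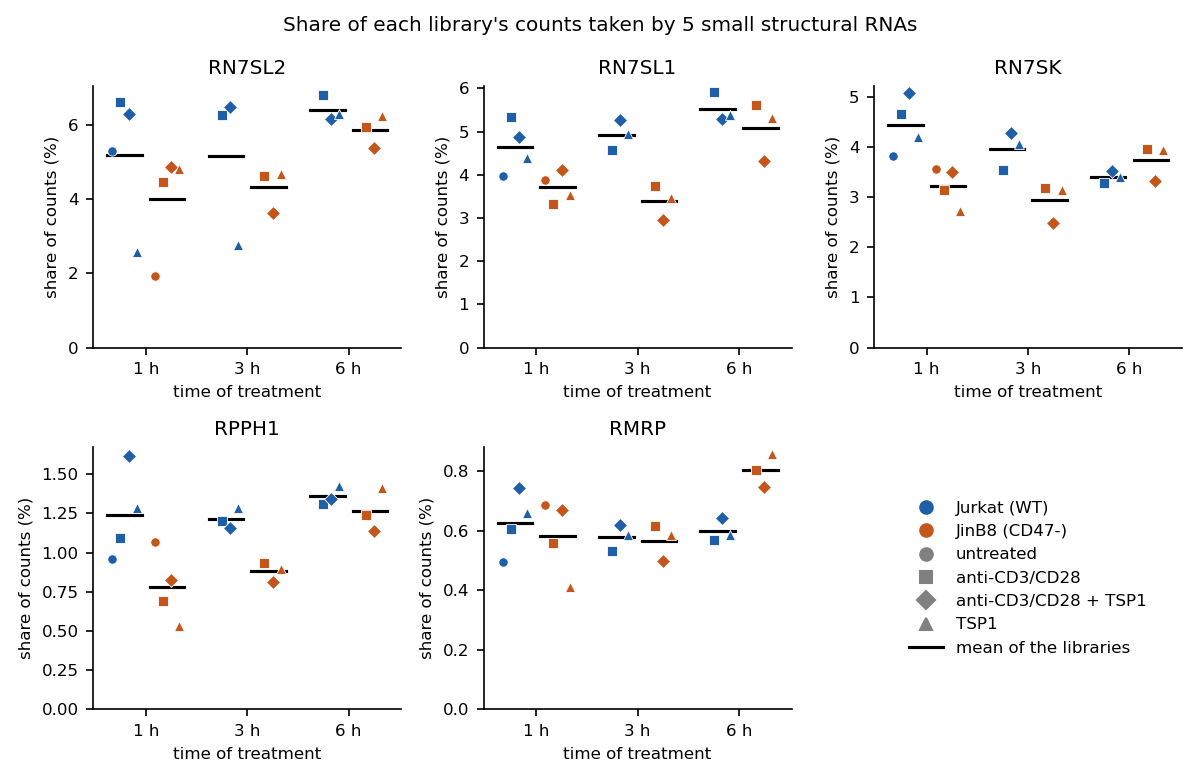
Share of each library's total counts (percent) taken by the small structural RNAs, by time and treatment, with 1 point per library, the line by colour, the treatment by shape and a bar at the mean of each line and time. RN7SL2 drops to 1.93, 2.58 and 2.77% in 3 libraries while RN7SL1 stays at 3.88 to 4.93% in the same libraries.

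RN7SL2, the more abundant 7SL gene, took 2.58 to 6.81% of the counts in Jurkat and 1.93 to 6.24% in JinB8. RN7SL1 took 3.97 to 5.91% in Jurkat and 2.94 to 5.62% in JinB8. RN7SL2 was the highest row of the table in 17 libraries, and RN7SL1 in the 3 others. In these 3 the share of RN7SL2 in all counts of RN7SL-named rows was 36.8% (Jurkat TSP1 1 h), 35.8% (Jurkat TSP1 3 h) and 33.1% (JinB8 UT 1 h), against 51.3 to 57.7% in the other 17 (mean 55.2% ± 1.80, SD). RN7SL2 per RN7SL1 was 0.498 to 0.586 in these libraries and 1.06 to 1.37 elsewhere, with no value between. They belong to both lines and to different treatments and times, but all are from cells without the CD3/CD28 coating and none is from 6 h. Other libraries without the coating were not low, with 57.1% in Jurkat UT 1 h and 57.5% in JinB8 TSP1 1 h. The summed share of all RN7SL rows was low in them too, at 7.001% in Jurkat TSP1 1 h (9.29 to 12.002% in the other Jurkat libraries at 1 h), 7.74% in Jurkat TSP1 3 h (10.9 and 11.8%) and 5.83% in JinB8 UT 1 h (7.81 to 8.98%). Neither RN7SL1 nor another RN7SL row took up the difference, the 678 remaining rows together holding 0.117 to 0.465% of RN7SL counts. Since the copies are near-identical, the division of reads between RN7SL1 and RN7SL2 is uncertain, and why RN7SL2 was low in these libraries was not tested.

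**Figure D2:**
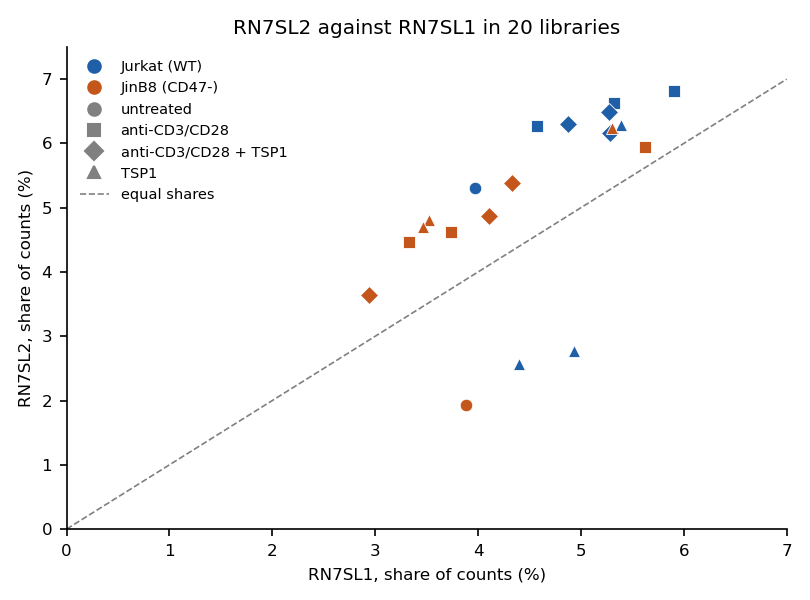
Share of total counts (percent) of RN7SL1 (horizontal axis) and RN7SL2 (vertical axis), 1 point per library, the line by colour and the treatment by shape, with a dashed line at equal shares. The 3 libraries with RN7SL2 per RN7SL1 of 0.498 to 0.586 lie apart from the other 17, at 1.06 to 1.37.

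Other annotated rows that overlap the small RNA genes held few counts. A row named 7SK at the RN7SK locus had at most 336 counts in a library, 0.0512% of RN7SK. AL355075.4, which covers RPPH1 on its strand, reached 1.29% of the RPPH1 counts, and AL627171.2, which covers RN7SL2, reached 0.0967%. RPS29, a ribosomal protein gene on the strand opposite to RN7SL1, had 0.608 to 0.970% of the RN7SL1 count. For RMRP the minor row (ENSG00000269900) held 49.3 to 290 CPM where the main row (ENSG00000277027) held 3969 to 8488, so the main row stands for RMRP in what follows. The identifier of the minor row was not found in the annotation used here, so what its counts stand for could not be checked, and its log2 CPM had a correlation of 0.586 with the main row over the 20 libraries with line means removed. Per kilobase of transcript the mean levels in Jurkat were in the order RN7SL2 (194189 CPM per kb), RN7SL1 (173883), RN7SK (126582), RPPH1 (39592) and RMRP (23043), and the order was the same in JinB8.

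The first comparison was between the lines over all 10 conditions, on CPM scaled by trimmed mean of M-values (TMM). RPPH1, RN7SL1 and RN7SK were lower in JinB8, by 0.51, 0.41 and 0.38 on the log2 scale, while RMRP, MALAT1 and NEAT1 differed by less than their error. Of the 8 rows 3 were lower and none was higher at an adjusted p under 0.05, where 20.6% of the 16327 genes tested were lower. With so few rows nothing particular to the members is read from this.

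RPPH1, the RNase P RNA, ranged from 9840 over a median of 12680 to 17670 CPM in Jurkat and from 5178 over 8577 to 14410 CPM in JinB8. The ranges overlapped, and JinB8 was lower in 9 of 10 matched conditions. The log2 difference was -0.51 (SE 0.150, edgeR adjusted p = 0.00845). RN7SL1 had 40730, 53940 and 61690 CPM as lowest, median and highest in Jurkat and 24550, 36020 and 56770 CPM in JinB8. It was lower in JinB8 in 10 of 10 matched conditions although the ranges overlapped, with a log2 difference of -0.41 (SE 0.128, edgeR adjusted p = 0.0128). RN7SK had 34350, 38950 and 55530 CPM in Jurkat and 20720, 31670 and 40170 CPM in JinB8, a log2 difference of -0.38 (SE 0.118, edgeR adjusted p = 0.0127), lower in 8 of 10 conditions. RN7SL2 was lower in 8 of 10 conditions too, with a log2 difference of -0.37 (SE 0.210) that did not pass (edgeR adjusted p = 0.174). Without the 3 libraries low in RN7SL2 its difference was -0.44 (edgeR adjusted p = 0.00802). With all RN7SL rows summed the difference was -0.39 (edgeR adjusted p = 0.0440), and without these libraries it was -0.44 (0.0158). The sum does not depend on how reads were divided among the rows but carries the lower totals of the 3 libraries. These were picked after the fact for low RN7SL2. Leaving them out narrows its spread by construction, so the values without them are no test. In bulk RNA, fewer cells with an RNA and less of it per cell cannot be told apart.

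The line difference was also taken within each time. At 1 h alone RN7SK differed by -0.58 (edgeR adjusted p = 0.00445), RN7SL1 by -0.45 (0.0178) and RPPH1 by -0.79 (0.00841). At 3 h the values were -0.58 (0.0693), -0.69 (0.0352) and -0.61 (0.0204). At 6 h they were 0.10 (0.232), -0.16 (0.132) and -0.15 (0.104), so none passed there. RN7SK was lower in JinB8 in 7 of 7 conditions at 1 and 3 h, with no overlap between the lines at either time, and in 1 of 3 at 6 h. The study normalized its data by quantiles, and under that scaling the line differences were -0.08 for RN7SK, 0.01 for RN7SL1 and -0.21 for RPPH1, none of which passed (limma adjusted p = 0.406, 0.905 and 0.129). Quantile scaling gives the row at a given rank the same value in every library, and since RN7SL1, RN7SL2 and RN7SK were always the 3 highest rows, it can show only changes of order among them.

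MALAT1 and RMRP showed no difference past the threshold between the lines. MALAT1 ranged from 2888 over 3459 to 7592 CPM in Jurkat and from 2659 over 3605 to 6053 CPM in JinB8, a log2 difference of -0.05 (SE 0.195, edgeR adjusted p = 0.870). The interval of 2 SE around it ran from -0.44 to 0.34. RMRP differed by -0.01 (SE 0.128, edgeR adjusted p = 0.951), with an interval from -0.27 to 0.24, and JinB8 was lower in 5 of 10 conditions. The sign of both values turned with the scaling. NEAT1, at 69.9 to 176 CPM in Jurkat and 74.8 to 187 CPM in JinB8, differed by 0.19 (SE 0.206, edgeR adjusted p = 0.491). Within the 6 h libraries RMRP was higher in JinB8 by 0.39 (edgeR adjusted p = 0.000223) and MALAT1 differed by -0.24 (edgeR adjusted p = 0.00293). In CPM neither overlapped between 3 and 3 libraries. As a share of the counts MALAT1 did overlap, with 0.2911% in JinB8 CD3/CD28+TSP1 and 0.2894% in Jurkat CD3/CD28.

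**Figure D3:**
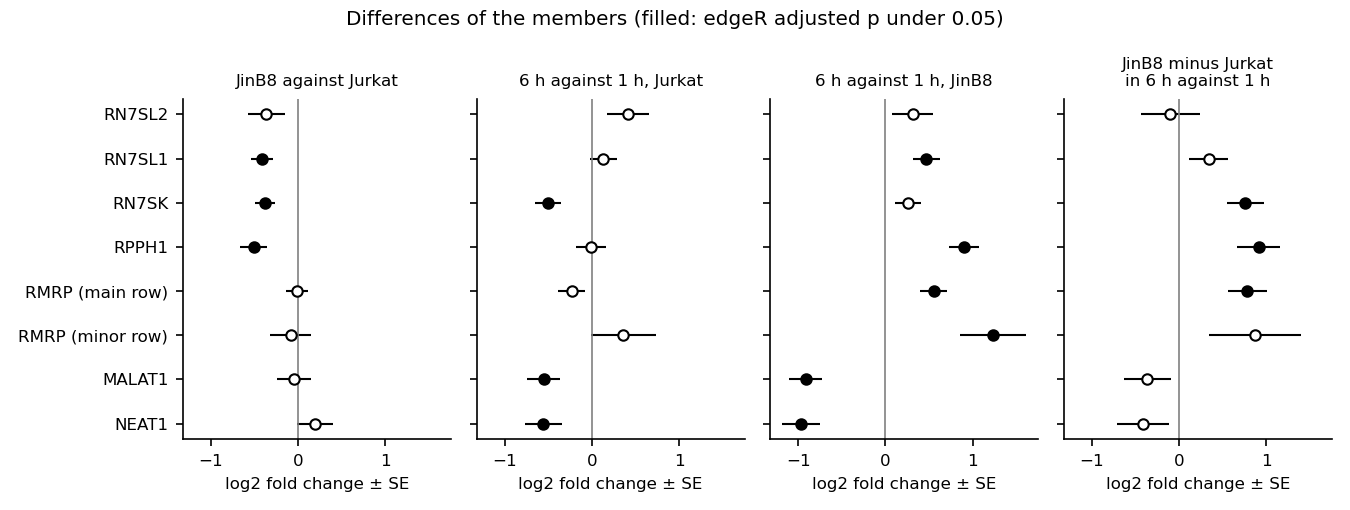
Log2 fold changes of the 8 member rows (points, filled where the edgeR adjusted p is under 0.05) ± SE (bars), in panels for JinB8 against Jurkat, for 6 h against 1 h in Jurkat and in JinB8, and for the difference between the lines in that time change. RPPH1 is at -0.51 between the lines and at 0.90 for 6 h against 1 h in JinB8.

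The second question was what changed with time on the plates. The time terms of a line rest on the 3 treatments that have all 3 times. RPPH1 in JinB8 had the smallest p of the rises among the small RNAs. It had 6841 (CD3/CD28), 8275 (CD3/CD28+TSP1) and 5178 CPM (TSP1) at 1 h and 12541, 11006 and 14413 CPM in the same order at 6 h. The groups did not overlap, and the log2 change was 0.90 (SE 0.175, edgeR adjusted p = 0.000614). Under quantile scaling it was 0.40 and did not pass (limma adjusted p = 0.0677). In Jurkat RPPH1 had 12307, 17667 and 13017 CPM at 1 h and 13695, 13880 and 14731 CPM at 6 h, which overlap, with a change of -0.01 (SE 0.173, edgeR adjusted p = 0.963). At 3 h RPPH1 in JinB8 had 8718, 6796 and 8435 CPM, overlapping the 1 h libraries, and its change from 1 h was 0.24 (SE 0.174, edgeR adjusted p = 0.305), or 0.51 (0.0201) without JinB8 CD3/CD28+TSP1 1 h.

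RMRP, the RNase MRP RNA, also rose in JinB8. It had 5442, 6485 and 3969 CPM at 1 h (CD3/CD28, CD3/CD28+TSP1 and TSP1) and 7848, 6960 and 8488 CPM at 6 h, all above the 1 h libraries, with a log2 change of 0.55 (SE 0.159, edgeR adjusted p = 0.00932). Without JinB8 TSP1 1 h the change was 0.31 (edgeR adjusted p = 0.0780), and without JinB8 TSP1 6 h it was 0.44 (0.0604). Under quantile scaling it was 0.17 (limma adjusted p = 0.273). In Jurkat it had 6745, 7879 and 6430 CPM at 1 h and 5639, 6420 and 5829 CPM at 6 h, a change of -0.23 (SE 0.157, edgeR adjusted p = 0.239). At 3 h the Jurkat change was -0.31 (SE 0.157, edgeR adjusted p = 0.145), which passed only without JinB8 CD3/CD28+TSP1 1 h (0.0274) or JinB8 TSP1 1 h (0.0491) among the fits without a library. The minor RMRP row rose in JinB8 by 1.24 (SE 0.378, edgeR adjusted p = 0.0134), from 123.1, 207 and 49.3 CPM to 285, 282 and 265 CPM. Over the fits without a library it rose by 0.75 to 1.89. Its call was lost without JinB8 CD3/CD28 1 h, JinB8 TSP1 1 h or JinB8 TSP1 6 h, with adjusted p of 0.0603, 0.0868 and 0.0526 in edgeR.

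RN7SL1 rose in JinB8 by 0.47 (SE 0.157, edgeR adjusted p = 0.0212), from 33063, 41062 and 34582 CPM at 1 h to 56766, 41829 and 54097 CPM at 6 h. The 6 h libraries were all above the 1 h libraries, the CD3/CD28+TSP1 pair by little. Its call was lost without JinB8 CD3/CD28 1 h, TSP1 1 h, CD3/CD28 6 h or TSP1 6 h, with edgeR adjusted p of 0.165, 0.109, 0.0952 and 0.0816, and under quantile scaling the change was 0. In Jurkat its change was 0.13 (SE 0.156, edgeR adjusted p = 0.508). RN7SL2 changed by 0.31 in JinB8 and 0.41 in Jurkat, neither past the threshold (edgeR adjusted p = 0.284 and 0.169), and without the 3 libraries low in RN7SL2 the Jurkat value was -0.09.

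RN7SK fell in Jurkat from 1 h to 6 h. It had 52466, 55533 and 42486 CPM at 1 h (CD3/CD28, CD3/CD28+TSP1 and TSP1), 35996, 44872 and 38841 CPM at 3 h, and 34347, 36352 and 35235 CPM at 6 h. At 3 h the log2 change from 1 h was -0.33 (SE 0.151, edgeR adjusted p = 0.111), and it passed without JinB8 CD3/CD28+TSP1 1 h (0.0247) or JinB8 CD3/CD28+TSP1 3 h (0.0290). The 6 h libraries were all below the 1 h libraries, and the change was -0.50 (SE 0.152, edgeR adjusted p = 0.0134). The call was lost without Jurkat CD3/CD28 1 h (adjusted p = 0.0661) or Jurkat CD3/CD28+TSP1 6 h (0.0741). In JinB8 RN7SK had 31175, 34915 and 26706 CPM at 1 h and 40011, 32169 and 40169 CPM at 6 h, a change of 0.26 (SE 0.152, edgeR adjusted p = 0.165). Without JinB8 CD3/CD28+TSP1 1 h that change was 0.51 (edgeR adjusted p = 0.00392), and without JinB8 CD3/CD28+TSP1 3 h it was 0.28 (0.0486).

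The difference between the lines in the change from 1 h to 6 h was tested as an interaction. It was 0.91 for RPPH1 (SE 0.246, edgeR adjusted p = 0.0221), 0.78 for RMRP (SE 0.223, 0.0287) and 0.76 for RN7SK (SE 0.214, 0.0274), each the more positive in JinB8. These are 3 of 8 rows, where 6.46% of all genes tested were called in that direction. Among 23 other small noncoding RNAs of a list chosen by function, 9 were called in that direction too and none in the other, with a median of 0.701 (-0.002 over all genes tested). RN7SL1 (0.34), RN7SL2 (-0.10), MALAT1 (-0.36, SE 0.268) and NEAT1 (-0.41, SE 0.301) were not called. MALAT1 and NEAT1 passed without JinB8 CD3/CD28+TSP1 3 h (-0.35 and -0.39, edgeR adjusted p = 0.0262 and 0.00803). RN7SL1 and the minor RMRP row passed without JinB8 CD3/CD28+TSP1 1 h (0.59 and 1.53, edgeR adjusted p = 0.0285 and 0.0328). Over all fits without a library MALAT1 ran from -0.57 to -0.21 and NEAT1 from -0.68 to -0.18. RN7SL1 ran from 0.18 to 0.59 and the minor RMRP row from 0.39 to 1.53. The 3 calls were not stable. RMRP lost its call in 9 of 20 fits that each left out a library, RN7SK in 8 and RPPH1 in 5. For RMRP these libraries were CD3/CD28 and CD3/CD28+TSP1 at 1 h, and CD3/CD28, CD3/CD28+TSP1 and TSP1 at 6 h in Jurkat, and CD3/CD28 and TSP1 at 1 h and at 6 h in JinB8, and for RN7SK the same but for Jurkat TSP1 6 h. For RPPH1 they were CD3/CD28+TSP1 at 1 h and 6 h in Jurkat, and CD3/CD28 1 h, TSP1 1 h and TSP1 6 h in JinB8. In those fits the edgeR adjusted p lay between 0.0519 and 0.0908. Without the 3 libraries low in RN7SL2 the edgeR adjusted p lay between 0.0577 and 0.0880, and none of the calls held under quantile scaling. For the change from 1 h to 3 h none of 8 rows was called, where 4.28% of genes were called in either direction (698 genes, against 1060 with DESeq2 and 1397 with no filter on low counts). With no filter 2 rows were called, and nothing particular to the members is read from this.

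MALAT1 and NEAT1 fell from 1 h in both lines. Other shares of the counts moved with time as well. Mitochondrially encoded genes took 0.584 to 0.643% at 1 h and 0.380 to 0.423% at 6 h in Jurkat, with no overlap, and 0.498 to 0.603% and 0.339 to 0.510% in JinB8. Histone genes took a mean of 1.46% ± 0.292 (SD, n = 4) at 1 h, 2.68% ± 0.331 (SD, n = 3) at 3 h and 2.001% ± 0.1201 (SD, n = 3) at 6 h in Jurkat, and 1.19% ± 0.222, 2.22% ± 0.279 and 1.57% ± 0.0163 in JinB8. Their part in the falls was not tested. In JinB8 MALAT1 had 4999, 4828 and 5748 CPM at 1 h (CD3/CD28, CD3/CD28+TSP1 and TSP1) and 2659, 2815 and 2837 CPM at 6 h, a log2 change of -0.91 (SE 0.191, edgeR adjusted p = 0.00108). NEAT1 had 154, 146 and 187 CPM and then 81.9, 86.5 and 83.0 CPM, a change of -0.97 (SE 0.214, edgeR adjusted p = 0.00171). The times did not overlap for either RNA, and both calls held in every fit that left out a library. With these the JinB8 comparison of 6 h with 1 h called 4 rows higher, the minor RMRP row among them, and 2 lower of 8, where 26.0% of genes tested were higher and 27.0% lower.

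In Jurkat MALAT1 had 4775, 4643 and 5062 CPM at 1 h, 3286, 3167 and 2888 CPM at 3 h and 3023, 3631 and 3255 CPM at 6 h. Both later times lay below all 1 h libraries, and the changes were -0.63 at 3 h (SE 0.190, edgeR adjusted p = 0.0193) and -0.55 at 6 h (SE 0.190, 0.0265). NEAT1 had 130, 135 and 130 CPM at 1 h, 69.9, 75.0 and 78.6 CPM at 3 h and 85.2, 94.3 and 89.1 CPM at 6 h. Its changes were -0.82 (SE 0.215, edgeR adjusted p = 0.00920) and -0.56 (SE 0.213, 0.0428). The untreated library at 1 h, which these contrasts do not use, was the highest in Jurkat for both, at 7592 CPM of MALAT1 and 176 CPM of NEAT1. In Jurkat 2 of 8 rows were thus lower at 3 h, where 17.4% of genes tested were lower, and 3 of 8 at 6 h, where 24.8% were. NEAT1 at 3 h kept its call in every fit without a library. MALAT1 at 3 h lost it without Jurkat CD3/CD28 1 h, TSP1 1 h, CD3/CD28+TSP1 3 h or TSP1 3 h (edgeR adjusted p = 0.0626 to 0.0944). At 6 h MALAT1 lost it without Jurkat CD3/CD28 or TSP1 at 1 h or at 6 h (0.0631 to 0.111), and NEAT1 without any 1 of 9 libraries (0.0530 to 0.117), namely the 3 of Jurkat at 1 h, CD3/CD28 and TSP1 at 3 h, the 3 at 6 h, and JinB8 CD3/CD28 1 h. Without the 3 libraries low in RN7SL2, of which a pair are Jurkat TSP1 libraries, NEAT1 at 3 h was called (0.0496) and MALAT1 at 3 h, MALAT1 at 6 h and NEAT1 at 6 h were not (0.148, 0.136 and 0.140). The scaling bore on the same 3 calls. MALAT1 at 3 h was -0.54 with library totals (edgeR adjusted p = 0.0588) and -0.56 with quantile scaling (limma adjusted p = 0.121), MALAT1 at 6 h -0.50 (0.0617) and -0.52 (0.122), and NEAT1 at 6 h -0.50 (0.0944) and -0.53 (0.0660), and NEAT1 at 6 h did not pass with DESeq2 either (-0.57, 0.0754).

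At 3 h in JinB8, 1 library stood apart, and the log2 changes moved with the library left out. Over the fits without a library they ran from -0.84 to -0.25 for MALAT1 and from -1.11 to -0.37 for NEAT1. MALAT1 had 2820 CPM with CD3/CD28 and 3003 CPM with TSP1 but 6053 CPM with CD3/CD28+TSP1, and NEAT1 had 74.8, 76.8 and 182 CPM. That library is the one with the lowest total and the lowest ribosomal protein share, it had the highest mitochondrially encoded share of the 20 (0.663%, against 0.446 and 0.501% in the other JinB8 libraries at 3 h), and the small RNAs RN7SK (20718 CPM), RN7SL1 (24547 CPM) and RMRP (3991 CPM) were low in it. With it the change from 1 h was -0.46 for MALAT1 (SE 0.192, edgeR adjusted p = 0.0769) and -0.64 for NEAT1 (SE 0.217, 0.0324), so that 1 of 8 rows was lower, where 20.1% of genes tested were lower. Without it the changes were -0.84 (edgeR adjusted p = 1.34e-05) and -1.11 (6.81e-07). Without JinB8 CD3/CD28+TSP1 1 h the MALAT1 change was -0.70 and passed as well (edgeR adjusted p = 0.0135). The NEAT1 call with all libraries was also lost without JinB8 CD3/CD28 or TSP1 at 1 h or 3 h, and without Jurkat CD3/CD28+TSP1 1 h, TSP1 1 h, CD3/CD28+TSP1 3 h or CD3/CD28 6 h or JinB8 TSP1 6 h, with edgeR adjusted p between 0.0510 and 0.205. It was lost as well with library totals (-0.50, edgeR adjusted p = 0.12), upper-quartile factors (-0.58, 0.0591), quantile scaling (-0.56, limma adjusted p = 0.0683) and DESeq2 (-0.63, 0.0562). Whether the composition of that library bears on its MALAT1 and NEAT1 levels was not tested.

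**Figure D4:**
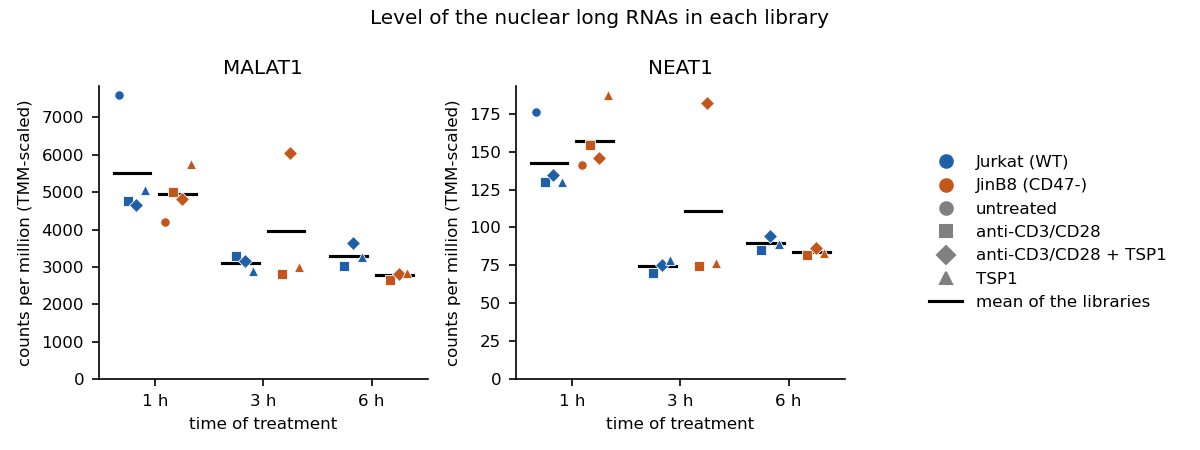
MALAT1 and NEAT1 levels (CPM scaled by TMM) by time and treatment in both lines, 1 point per library, with a bar at the mean of each line and time. All 3 JinB8 libraries at 6 h lie at 2659 to 2837 CPM of MALAT1, and the JinB8 CD3/CD28+TSP1 library at 3 h stands at 6053 CPM.

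Activation was compared as CD3/CD28+TSP1 against TSP1, the contrast that has all 3 times on both sides, and TSP1 as CD3/CD28+TSP1 against CD3/CD28, so the pair of contrasts shares the CD3/CD28+TSP1 libraries. No member passed in any of them with the filter on low counts. With no filter 1 member was called for activation in Jurkat, 4 for activation in JinB8 and 4 for TSP1 in activated JinB8. The same fits called 201, 538 and 401 genes over all. How many genes they tested is not given, so nothing particular to the members is read from this. In Jurkat activation called 0.0919% of genes, 15 in all (816 at an unadjusted p under 0.05), and the member with the largest difference was RN7SL2 at 0.87 (SE 0.242, edgeR adjusted p = 0.461). That value rested on the TSP1 libraries low in RN7SL2, and without the 3 low libraries it was 0.01. Without Jurkat TSP1 6 h, a library not low in RN7SL2, it was 1.35 and passed (edgeR adjusted p = 0.00289). Activation in JinB8, TSP1 in activated Jurkat and TSP1 in activated JinB8 each called 0% of genes with edgeR. At an unadjusted p under 0.05 they had 2636, 366 and 1772 genes, DESeq2 called 0, 1 and 0 genes, limma voom none, and edgeR with no filter 538, 84 and 401. With TSP1 in activated JinB8, MALAT1 differed by 0.41 (SE 0.192) and NEAT1 by 0.47 (SE 0.216), both with an edgeR adjusted p of 0.459. Without JinB8 CD3/CD28+TSP1 3 h these differences were 0.01 and -0.02.

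The isoform table divides MALAT1 and NEAT1 between annotated transcripts. NEAT1 was listed with 9 isoforms and MALAT1 with 17, and 17 of them passed the filter. The long NEAT1 isoform (ENST00000501122, 22743 bases, chr11:65422798-65445540) held 790 to 3657 counts in a library. Its part of all NEAT1 counts was 40.7% at the lowest, 49.8% at the median and 60.1% at the highest in Jurkat, and 70.7%, 78.7% and 87.0% in JinB8, so the lines did not overlap. Within matched conditions the log2 ratio of the long to the other isoforms was higher in JinB8 by 1.86 ± 0.467 (SD, n = 10), and it was higher in all 10. An exact permutation test that flipped the sign of each paired difference, two-sided, gave p = 0.00195, which 10 pairs cannot go below. The summed NEAT1 row had differed by 0.19 on the log2 scale, which did not pass.

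**Figure D5:**
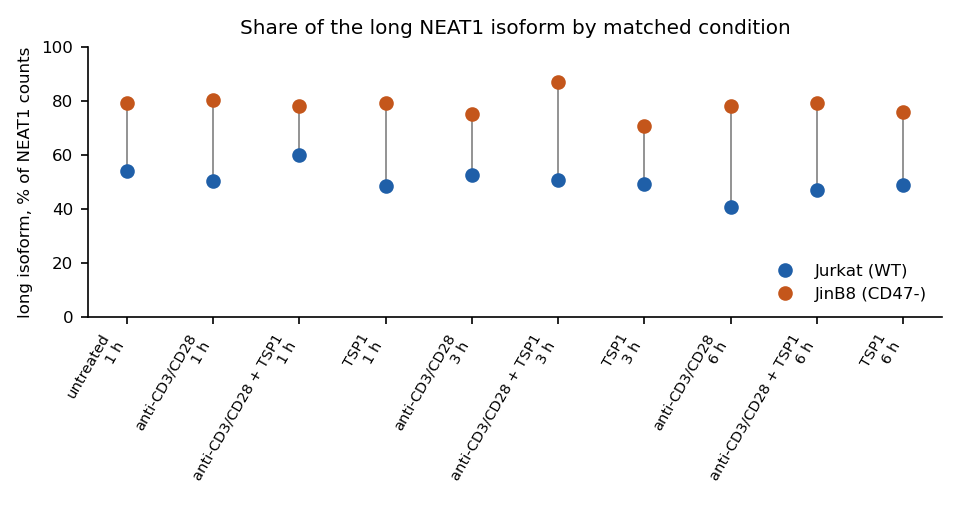
Percent of NEAT1 counts assigned to the long isoform, 1 point per library, with a line joining the Jurkat and JinB8 libraries of each of the 10 conditions. The JinB8 libraries lie at 70.7 to 87.0% and the Jurkat libraries at 40.7 to 60.1%.

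By isoform the long NEAT1 transcript was 53.3 ± 19.3 CPM (SD, n = 10) in Jurkat and 96.1 ± 37.5 CPM (SD, n = 10) in JinB8, a log2 difference of 0.85 (SE 0.227, edgeR adjusted p = 0.0123). A pair of shorter isoforms was lower in JinB8. ENST00000645023 was 21.9 ± 8.26 CPM in Jurkat and 6.91 ± 4.88 CPM in JinB8 (-1.66, SE 0.501, edgeR adjusted p = 0.0268), and ENST00000499732 was 13.0 ± 5.02 and 4.89 ± 2.80 CPM (-1.41, SE 0.456, 0.0396). These were the 3 isoforms called of 17, against 15.1% of the 55450 isoforms tested. Per kilobase the long isoform stood at 2.34 ± 0.849 CPM per kb in Jurkat and 4.23 ± 1.65 in JinB8, ENST00000645023 at 6.64 ± 2.50 and 2.09 ± 1.48. The main MALAT1 isoform, ENST00000534336, was 3390 ± 1099 CPM in Jurkat and 3312 ± 1018 CPM in JinB8 (-0.03, edgeR adjusted p = 0.940). With the 10 conditions as a block the call for ENST00000645023 ended (-1.91, edgeR adjusted p = 0.0597), and with library totals in place of TMM that for ENST00000499732 did (-1.32, 0.0520). The short isoforms overlap the 5′ part of the long one, so the counting tool had to divide shared reads by model. The isoform values thus carry an error that the spread between libraries does not show. Whether the capture of polyadenylated RNA took long and short isoforms alike was not tested, so the ratio describes sequenced counts.

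The proteins that work with these RNAs were examined as lists chosen by function, each given by its count and median beside all genes tested, whose median log2 change was close to 0 (-0.007, -0.003 and -0.003 in the comparisons used). Between the lines 40.4% of all genes were called in either direction. Of 8 proteins of the signal recognition particle and its receptor, 4 were lower in JinB8 and 1 higher (median -0.175), with SRP14 at -0.38 (edgeR adjusted p = 5.84e-05), the receptor subunit SRPRA at -0.38 (6.76e-05) and SRP68 at 0.25 (0.00535). Of 7 genes of the 7SK particle and P-TEFb, HEXIM1 (-0.48, 0.0135) and LARP7 (-0.18, 0.0417) were lower and the kinase CDK9 was higher (0.26, 0.00629), with a median of -0.009. Of 11 RNase P and RNase MRP proteins 1 was higher (RPP38, 0.45) and 3 lower (RPP21, RPP14 and POP5), with a median of -0.082. Of 13 rows of paraspeckle proteins 3 were lower (TARDBP at -0.39, CPSF6 at -0.21 and SFPQ at -0.25) and none higher (median -0.168). Of 30 genes of RNA polymerase III and its factors 6 were higher, led by GTF3C5 at 1.59 (edgeR adjusted p = 1.01e-09), and 3 lower, led by BDP1 at -0.49 (1.08e-07), with a median of 0.104.

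From 1 h to 6 h 50.5% of all genes were called in Jurkat and 53.0% in JinB8. RNA polymerase III genes were more often called higher than lower at 6 h, 17 of 30 higher and 2 lower in Jurkat (median 0.317) and 15 higher and 6 lower in JinB8 (median 0.205). POLR3B, a large polymerase subunit, rose by 1.52 in Jurkat and 1.91 in JinB8 (edgeR adjusted p = 5.85e-09 and 9.51e-10). RNase P and RNase MRP proteins had 6 higher and 1 lower of 11 in Jurkat (median 0.360) and 8 higher and 1 lower in JinB8 (median 0.421), with the large subunit POP1 at 1.99 and 1.96 (edgeR adjusted p = 3.58e-09 and 3.94e-09). HEXIM1, the protein that binds P-TEFb with 7SK, fell by 0.86 and 0.61 on the log2 scale (7.55e-06 and 0.000165), and of its list of 7 genes 1 was higher and 2 lower in Jurkat (median -0.133) and 2 and 3 in JinB8 (median -0.137). In the signal recognition particle list SRPRB, a receptor subunit, rose by 0.91 and 1.07 (1.37e-06 and 2.32e-07), and 3 of 8 were higher in Jurkat (median 0.143) and 2 of 8 in JinB8 (median -0.079), with 1 lower in each. Paraspeckle proteins were called in both directions, 4 higher and 3 lower of 13 rows in Jurkat (median 0.045) and 5 and 4 in JinB8 (median 0.144).

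Other small noncoding RNAs, a list of spliceosomal, nucleolar, Cajal body and cytoplasmic RNAs with 23 tested, had 18 lower and none higher at 6 h in Jurkat (median -0.735). RNU12, of the minor spliceosome, fell by 1.01 on the log2 scale (edgeR adjusted p = 1.58e-05), and RNU5B-1 fell by 1.07 (3.78e-05). In JinB8 4 were higher and 1 lower (median -0.221), among them the telomerase RNA TERC at 1.23 (0.00440) and RN7SL3, another 7SL gene, at 0.87 (0.00301). Between the lines 5 of these were lower in JinB8 and 1 higher (median -0.026), with RN7SL3 at -1.08 (1.36e-05) and SNORD3A, the U3 RNA of ribosomal RNA processing, at -0.66 (0.000305). Of 11 other long noncoding RNAs 3 were higher and 4 lower at 6 h in Jurkat (median 0.095), and 5 and 3 in JinB8 (median 0.157), with DANCR at 0.91 and 1.37 (edgeR adjusted p = 5.95e-07 and 1.43e-08). Between the lines 2 of them were lower in JinB8 (median -0.117), OIP5-AS1 at -0.58 (7.21e-06) and MIAT at -0.65 (2.97e-05).

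The members fell into patterns that the rule had not used. Over the 20 libraries, with the mean of each line removed, log2 CPM of MALAT1 and NEAT1 had a correlation of 0.965. RPPH1 and RMRP had 0.887, RN7SK and RMRP 0.854, and RPPH1 and MALAT1 -0.628, while the pair RN7SL1 and RN7SL2 had 0.552. Without the 3 libraries low in RN7SL2 (Jurkat TSP1 1 h, Jurkat TSP1 3 h and JinB8 UT 1 h) that pair had 0.949, over 17 libraries. These libraries were picked for their low RN7SL2 beside RN7SL1, so a rise follows from that choice by construction. Among 9883 genes those most like MALAT1 were SIN3A (0.975), POGZ (0.970) and TET1 (0.969), and those most like NEAT1 were BAZ2A (0.978) and AL365295.1 (0.968), followed by MALAT1. Those most like RMRP were RPS9 (0.950) and FAU (0.935), and for RN7SK they were RACK1 (0.900) and GPR108 (0.886). Among the genes most like RPPH1 were NDUFV1 (0.939) and C12orf57 (0.938). For RN7SL1 they were POLR1H (0.944) and RPS19 (0.938), and for RN7SL2 RN7SL4P, another 7SL copy (0.907), then RBM4 (0.758). These values are descriptions over libraries that share their time points, and they hold the libraries that stand apart. Without JinB8 CD3/CD28+TSP1 3 h, over 19 libraries, MALAT1 and NEAT1 had 0.961, RPPH1 and RMRP 0.893, RN7SK and RMRP 0.810, and RPPH1 and MALAT1 -0.591. When the 3 libraries low in RN7SL2 were left out these were 0.967, 0.890, 0.853 and -0.694, and RN7SL2 had 0.854 with RN7SL4P and 0.859 with RBM4.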

How the data were processed

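Total RNA of 20 cultures was made into libraries with a TruSeq mRNA (poly(A)) kit and sequenced in pairs. Per the labels, the authors used cutadapt 1.18 for trimming, STAR 2.4.2a for alignment (GRCh38) and RSEM 1.3.3 for estimates of expression. The deposited values are expected counts per gene and per isoform, which RSEM divides between features that share reads, so they need not be whole. The methods name quantile normalization in limma and a batch correction, neither of which is in the deposited counts. A further 2 columns of the table belong to no sample of the series and were not used.

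Counts were rounded and tested with edgeR 4.0.16 (quasi-likelihood test, TMM factors, filterByExpr with a minimum count of 10) in R 4.3.3, on all genes, with Benjamini-Hochberg adjustment over the 16327 genes or 55450 isoforms tested and a threshold of 0.05. The line comparison used 10 libraries per line. Time and treatment were fitted in 1 model of 12 coefficients over all 20 libraries. The SE of an edgeR result is approximate, the size of its log2 difference divided by the square root of the test's F statistic. CPM are counts scaled to a common library size after TMM, and shares are percent of a library's total count. The edgeR fits of the line comparison and of 6 h against 1 h in Jurkat were tried on simulated counts. The NEAT1 isoform ratio was taken with a pseudocount of 1 and tested by sign flips over the 10 matched conditions. Likeness was Pearson's correlation of log2 CPM (prior count 2) among genes with a mean of at least 3. The text names the 7 members, at most 4 genes with the smallest p of each list of partner genes, and the genes most like each member. Some genes and sequences that these rules reach are not reported here. The members and the lists were chosen with earlier results of these data known. Positions and sequences come from GRCh38 with the GENCODE annotation given as reference, and isoforms were matched by identifier and version.

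Alternatives were other scalings (library totals, upper quartile, factors without the members), DESeq2 1.42.0, limma 3.58.1 voom with quantile normalization, other filters, each library left out, the conditions as a block, a term for time, single times or lines, and 4 chosen after seeing the data, which left out the 3 libraries low in RN7SL2, summed the RMRP and RN7SL rows, did both for RN7SL, or took shares and correlations without libraries that stood apart. Totals of 16107909 to 31737627 counts give the members of this text at least 49.3 CPM in every library, so counting error is small beside the spread between libraries.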

Additional observations from a re-analysis of the deposited data

Results flagged for a closer look

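Among 36 groups of 4 to 10 libraries looked at, 5 held a library far from the others. Chance flags about 1 in 20 separate groups. These groups share libraries and several flags are of the same library, so no excess over chance is read from this. RN7SL2 took 1.93% of the counts in the untreated JinB8 library, the lowest of the 4 JinB8 libraries at 1 h. In the same library RN7SL2 held 33.1% of the RN7SL counts, the lowest both of the 4 at 1 h and of the 10 JinB8 libraries. In Jurkat the TSP1 library at 1 h had 36.8%, the lowest of 4 at 1 h. The share of MALAT1 in the untreated Jurkat library, 0.740%, was the highest of the 10 Jurkat libraries.

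The change from 1 h to 6 h differed between the lines for 3 rows by the interaction test. The difference was 0.78 for the main RMRP row, 0.76 for RN7SK and 0.91 for RPPH1 on the log2 scale (edgeR adjusted p = 0.0287, 0.0274 and 0.0221), each more positive in JinB8. These calls were not stable, being lost in 9, 8 and 5 of the 20 fits that each left out a library, under quantile scaling and without the 3 libraries low in RN7SL2. The causes were not tested.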

How the results depend on the processing

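The lower RPPH1, RN7SL1 and RN7SK in JinB8 kept their calls in all 20 fits without a library, and the falls of MALAT1 and NEAT1 and the rise of RPPH1 at 6 h in JinB8 did too, though quantile scaling ended the calls of RPPH1 (0.40 at 6 h in JinB8, limma adjusted p = 0.0677) and of all 3 line differences. With the 10 matched conditions as a replicate block (pairing) the line differences were -0.38 for RN7SK, -0.44 for RN7SL1 and -0.56 for RPPH1 (edgeR adjusted p = 0.0188, 0.00407 and 0.00240), and the block changed no call of a gene row, but it ended that of the isoform ENST00000645023 (-1.91). Causes were not tested except where the construction shows them.

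With library totals, which moved the median of all genes by 0.111 in the line comparison, MALAT1 was at 0.0788, its isoform ENST00000534336 at 0.0681 and RMRP at 0.0921 (minor row 0.0154) between the lines, RN7SL1 and RN7SL2 at 0.0223 and 0.0163 at 3 h and RPPH1 at 0.0406 at 6 h in Jurkat, RMRP at 0.0316 at 3 h in JinB8, and 1 member was called at 3 h and 1 at 6 h in Jurkat. With upper-quartile factors RMRP was at 0.0182 between the lines, and 0 members were called at 3 h in JinB8, as with DESeq2. Of the 16327 genes tested, library totals called 5768 at 3 h and 8194 at 6 h in Jurkat. At 3 h in JinB8 upper-quartile factors called 6237 genes and DESeq2 5797. Quantile scaling called 0 members between the lines, and 1 at 3 h and 1 at 6 h in Jurkat. It called 3 members at 6 h in JinB8 and 0 for the 6 h interaction. In the same order it called 6857, 5797, 8407, 8775 and 2758 of the 16327 genes tested. Under it MALAT1 was at 0.13, RN7SL1 at 0.0116 and RN7SL2 at 0.0673 between the lines. RN7SL1 was at 0.13 at 3 h and RPPH1 at 0.30 at 6 h in Jurkat, and RN7SL1 at -0.0353 for the interaction. By time, the line difference was 0.35 for MALAT1 and 0.0321 for the minor RMRP row at 3 h, and -0.0853 for NEAT1, 0.39 and 0.0933 for the RMRP rows and 0.10 for RN7SK at 6 h.

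With no filter on low counts 5 members were called at 3 h and 6 at 6 h in Jurkat, and 7 at 3 h in JinB8. In these fits 5446, 8332 and 6065 genes were called over all. The interactions at 3 h and 6 h called 2 and 7 members, beside 1397 and 2762 genes. Activation called 1 and 4 members in Jurkat and JinB8, beside 201 and 538 genes. TSP1 in activated JinB8 called 4 members, beside 401 genes. How many genes these unfiltered fits tested is not given, so nothing particular to the members is read from their counts. With 1 line alone 4 members were called at 3 h in Jurkat and 0 in JinB8. Without the 3 libraries low in RN7SL2 the members called were 1 at 3 h and 1 at 6 h in Jurkat. There were 0 at 3 h in JinB8 and 0 for the 6 h interaction. RN7SL2 was then at -0.0923 at 6 h in Jurkat and 0.41 for the interaction. The genes called over all are not given for these fits, so nothing particular to the members or to a line is read from the counts. Over all genes the interaction at 3 h called 698 genes against 1060 with DESeq2 and 1397 with no filter, and activation in Jurkat 15 against 53 with DESeq2, 28 with voom and 201 with no filter. With no filter activation in JinB8 called 538 genes, TSP1 in activated Jurkat 84 and in activated JinB8 401, against 0 each.

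Leaving out each library gave -0.12 to 0.0919 for MALAT1, -0.0658 to 0.0592 for RMRP and -0.15 to 0.0332 for its minor row between the lines. At 3 h in Jurkat it gave -0.38 to 0.28 for the minor RMRP row, -0.17 to 0.0455 for RN7SL1 and -0.32 to 0.0936 for RN7SL2, and at 6 h -0.0607 to 0.61 for the minor RMRP row, -0.066 to 0.68 for RN7SL2 and -0.12 to 0.14 for RPPH1. It gave -0.35 to 0.17 for RMRP at 3 h in JinB8, -0.36 to 0.38 for RN7SL2 in the 6 h interaction and -0.0183 to 0.76 for NEAT1 with TSP1 in activated JinB8. Members called ranged from 1 to 4 at 3 h and 0 to 3 at 6 h in Jurkat, and 0 to 4 and 3 to 7 in JinB8. They ranged from 0 to 5 for the 6 h interaction and 0 to 1 for activation in Jurkat. With all libraries these contrasts called, in the same order, 5600, 8238, 6208, 8647, 2714 and 15 of the 16327 genes tested. Gene counts of the fits without a library are not given, so nothing particular to the members is read from the ranges.

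Each condition had 1 library, so treatment effects rest on agreement across times. NEAT1 had at least 1546 counts in each library.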
